A study of Homo sapiens with 2 samples.

Results

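The group around miR-15, miR-16 and miR-107 is a set of mature miRNAs with AGCAGC at or next to their 5′-end. In A549 cells, an established line from a human lung adenocarcinoma, it was represented by 9 of the 859 listed mature miRNAs. The members were chosen by name: miR-15a-5p, miR-15b-5p, miR-16-5p, miR-195-5p, miR-424-5p, miR-497-5p, miR-503, miR-103a-3p and miR-107, all of which are listed. The rule names them without using a measured value, but the group was picked with earlier results of these data known. A549 cells in DMEM with 10% FCS were incubated either in normoxia, at 20% oxygen, or in hypoxia, at 1.2% oxygen, both for 24 h, and 1 small RNA library was sequenced from each. With 1 library per condition there is no replicate check, so no test of oxygen was made and no p-value is given. A difference between conditions cannot be told apart from a difference between 2 cultures or 2 library preparations.

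A miRNA is cut from a hairpin precursor, and 1 of its arms, the guide, is loaded into an Argonaute protein and pairs with mRNAs mainly through its seed, the bases from position 2 to position 8. miR-15 and miR-16 are known as repressors of the survival gene BCL2 and of cyclins and cyclin-dependent kinases, and their locus on the long arm of chromosome 13 is often deleted in chronic lymphocytic leukaemia. Of the other members, miR-103 and miR-107 lie in introns of pantothenate kinase genes and target DICER1, whose product cuts the hairpins, and miR-424 has been studied in hypoxic endothelial cells as a repressor of CUL2, part of a ligase that marks HIF-1α for degradation.

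The 9 mature sequences are shown because the group is defined by them. They are written 5′ to 3′ from RefSeq (GRCh38.p14), with the seed in capitals, and each equals the sequence of its entry in the table. RefSeq holds miR-503 under the name miR-503-5p, and it was matched by its sequence.
miR-15a-5p: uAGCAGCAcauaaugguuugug
miR-15b-5p: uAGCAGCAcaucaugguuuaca
miR-16-5p: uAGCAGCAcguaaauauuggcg
miR-195-5p: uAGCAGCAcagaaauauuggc
miR-424-5p: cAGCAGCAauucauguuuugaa
miR-497-5p: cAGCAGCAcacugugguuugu
miR-503: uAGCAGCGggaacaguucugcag
miR-103a-3p: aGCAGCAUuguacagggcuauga
miR-107: aGCAGCAUuguacagggcuauca
The first 6 share the seed AGCAGCA, miR-503 has AGCAGCG, and miR-103a-3p and miR-107 have GCAGCAU. The last pair holds AGCAGCA at positions 1 to 7, so that its sequence is moved by 1 base toward the 5′-end relative to miR-16-5p. In the sequences that the table itself gives, AGCAGC lay within the first 7 bases of 9 of the 859 listed miRNAs (1.05%), the same 9 members. The shorter GCAGC lay within the first 8 bases of 4 others. These were miR-1301 with 329 counts in normoxia and 703 in hypoxia, miR-4690-3p with 17 and 58, miR-3944-5p with 1 and 3, and miR-1184 with 0 and 3.

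Beyond the seed the members differ. The number of base changes, insertions and deletions between 2 members ranged from 1 to 12 over the 36 pairs, with a median of 9.5. miR-15a-5p and miR-15b-5p differ by 4 and miR-16-5p and miR-195-5p by 3. miR-103a-3p and miR-107 differ only by G22C, counted from the 5′-end of miR-103a-3p, in 23 bases. Reads that lack this base cannot separate them, and their individual counts are uncertain.

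The members come from 11 hairpins at 7 loci, placed here on GRCh38.p14. MIR15A (chromosome 13, 50049119 to 50049201) and MIR16-1 (50048973 to 50049061) lie on the minus strand, 57 bases apart, in an exon and an intron of DLEU2. MIR15B (chromosome 3, 160404588 to 160404685) and MIR16-2 (160404745 to 160404825) lie on the plus strand, 59 bases apart, in introns of SMC4, a condensin subunit. MIR195 (chromosome 17, 7017615 to 7017701) and MIR497 (7017911 to 7018022) lie on the minus strand in exons of MIR497HG, 209 bases apart. MIR424 (chromosome X, 134546614 to 134546711) and MIR503 (134546328 to 134546398) lie on the minus strand in an exon and an intron of MIR503HG, 215 bases apart. MIR103A1 (chromosome 5, 168560896 to 168560973, minus strand), MIR103A2 (chromosome 20, 3917494 to 3917571, plus strand) and MIR107 (chromosome 10, 89592747 to 89592827, minus strand) lie in introns of PANK3, PANK2 and PANK1. All these host genes, from GENCODE 29, are transcribed in the direction of the hairpin. miR-16-5p and miR-103a-3p are made from 2 hairpins each but have a single entry in the table, so their counts cannot be divided between loci.

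Mature miRNAs took 4514818 of 6449337 counts in normoxia (70.0%) and 8600160 of 13115226 in hypoxia (65.6%). A single one, miR-21-5p, took 72.2% and 68.4% of the mature counts. Levels below are in CPM, counts per 1000000 mature miRNA counts, with an exact Clopper-Pearson 95% interval. Intervals cover counting error only, and PCR copies were counted without molecular identifiers. The members are 21 to 23 bases long, so their levels were compared without scaling by length. How evenly their sequences were ligated and copied was not measured, which limits comparisons of level between different miRNAs. The 5 epithelial miRNAs of the miR-200 family were all listed, with a summed level of 1165 CPM in normoxia and 1360 CPM in hypoxia. Most of it was miR-200b-3p at 880 and 1085 CPM, while miR-141-3p (37.2 and 25.5 CPM) and miR-429 (91.5 and 87.4 CPM) were lower in hypoxia. Of 8 miRNAs of blood or endothelial cells, 6 were listed at 223 and 239 CPM in sum, most of it miR-126-3p at 179 and 190 CPM. miR-451a of red blood cells stood at 18.2 and 22.2 CPM and miR-486-5p at 23.7 and 26.2 CPM, and the other 3, miR-142-3p, miR-142-5p and miR-150-5p, had 1 to 6 counts in each library. miR-210, a known target of HIF, stood at 954 CPM in normoxia and 2657 CPM in hypoxia, a log2 ratio of 1.48 and the highest of the 339 miRNAs past the expression filter used below.

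As a whole, the group was lower in the hypoxic library. Its 9 members received 28216 counts in normoxia, 0.625% of all mature counts (interval 0.618 to 0.632), and 37129 counts in hypoxia, or 0.432% (0.427 to 0.436). Hypoxia over normoxia, this was a log2 ratio of -0.53, with an exact conditional binomial 95% interval of -0.56 to -0.51, and the share in hypoxia was 0.691 times that in normoxia. Without hsa-miR-16-5p, the most abundant member, the log2 ratio was -0.55.

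The levels of the members spanned more than 2 orders of magnitude. hsa-miR-16-5p had 14791 and 19689 counts, or 3276 CPM in normoxia (3224 to 3329) and 2289 CPM in hypoxia (2258 to 2322), and hsa-miR-15b-5p had 7288 and 9842, or 1614 CPM (1577 to 1652) and 1144 CPM (1122 to 1167). Both made up most of the group in each library, with 52.4% and 53.0% of its counts for miR-16-5p and 25.8% and 26.5% for miR-15b-5p. Their rank among all mature miRNAs went from 21 to 39 and from 43 to 59.

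The middle of the order held 3 miRNAs. hsa-miR-103a-3p had 2284 and 2425 counts, or 506 CPM (485 to 527) and 282 CPM (271 to 293). hsa-miR-15a-5p had 1761 and 2849 counts, or 390 CPM (372 to 409) and 331 CPM (319 to 344). The order of these 2 neighbours turned between the libraries, and their intervals did not overlap in either. hsa-miR-424-5p followed with 1215 and 1220 counts, or 269 CPM (254 to 285) and 142 CPM (134 to 150).

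The remaining members were rarer. hsa-miR-503 had 435 and 446 counts, or 96.3 CPM (87.5 to 106) and 51.9 CPM (47.2 to 56.9). hsa-miR-107 had 232 and 373 counts, or 51.4 CPM (45.0 to 58.4) and 43.4 CPM (39.1 to 48.0). In hypoxia the intervals of these 2 neighbours overlapped. hsa-miR-195-5p had 184 and 219 counts, or 40.8 CPM (35.1 to 47.1) and 25.5 CPM (22.2 to 29.1), and in normoxia its interval overlapped that of miR-107. hsa-miR-497-5p was the rarest with 26 and 66 counts, or 5.76 CPM (3.76 to 8.44) and 7.67 CPM (5.94 to 9.76), and its intervals overlapped between the libraries. It was the only member with a higher level in hypoxia.

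**Figure D1:**
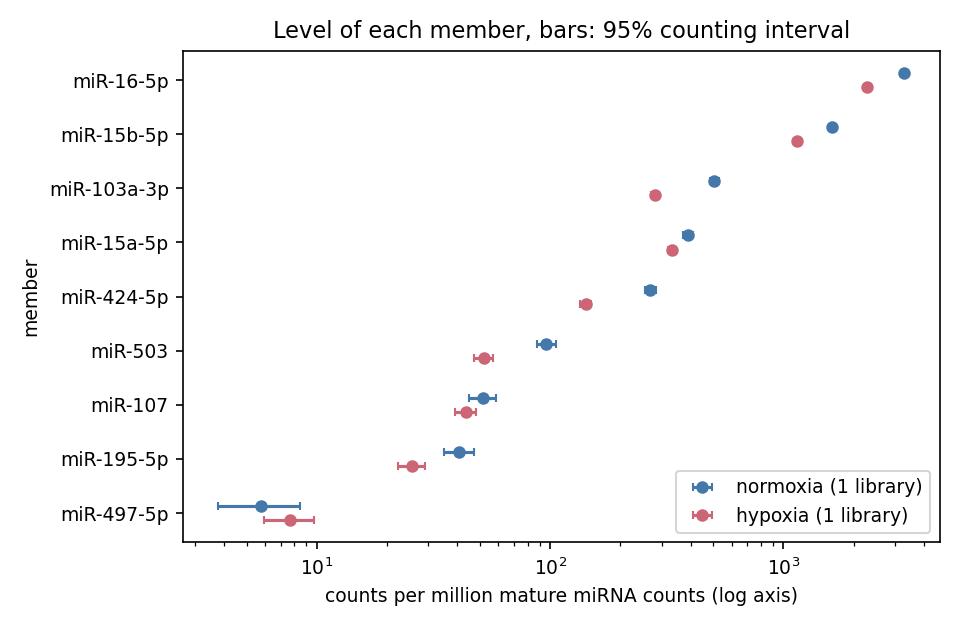
Level of each member in the normoxia library (blue) and the hypoxia library (red) in CPM on a log axis, with bars for the 95% counting interval. Levels run from 3276 CPM for miR-16-5p in normoxia down to 5.76 CPM for miR-497-5p, and the red point lies to the left of the blue one for every member but miR-497-5p.

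The 8 members with a mean log2 CPM above 3, a filter that 339 of the 859 miRNAs passed, had unequal log2 ratios. The pair from chromosome X stood lowest, with -0.92 (interval -1.04 to -0.81) for miR-424-5p and -0.89 (-1.09 to -0.70) for miR-503. They were followed by miR-103a-3p at -0.84 (-0.93 to -0.76) and miR-195-5p at -0.68 (-0.97 to -0.39). These 4 held ranks 11, 12, 15 and 21 from the lowest ratio of the 339 miRNAs.

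The abundant pair lay in the middle, with -0.52 (-0.55 to -0.49) for miR-16-5p and -0.50 (-0.54 to -0.45) for miR-15b-5p, ranks 37 and 39. The ratio was nearest to 0 for miR-15a-5p, at -0.24 (-0.32 to -0.15), and for miR-107, at -0.24 (-0.48 to -0.0019), ranks 82 and 80. miR-15a-5p thus differed from its paralogue miR-15b-5p, and miR-107 from its paralogue miR-103a-3p, by intervals that did not overlap. The rare miR-497-5p, under the filter, had a log2 ratio of 0.41 (-0.26 to 1.13).

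Where a log2 ratio of 0.9 or more, up or down, was taken as a difference in size, 1 member of 8 was lower, miR-424-5p, while miR-503 fell just outside it. The same rule took 11 of all 339 miRNAs as lower (3.24%) and 12 as higher (3.54%), with 0 members among the latter. The split of all called miRNAs rests on the scaling: 52.2% of them were higher when scaled to mature totals, 34.8% with TMM factors, DESeq2 size factors or totals of the whole table, and 21.7% with totals over the miRNAs outside the top 10 of each library. With each of these other scalings 3 members were lower, miR-424-5p, miR-503 and miR-103a-3p, beside 15 of all 339 miRNAs (4.42%) with TMM, DESeq2 or whole-table scaling and 18 (5.31%) with totals outside the top 10. The whole counting interval of the ratio was below 1 for 8 of 8 members past the filter, beside 90 of all 339 miRNAs (26.5%), and above 1 for 0 members, beside 124 of all (36.6%). With totals outside the top 10 it was below 1 for the same 8 members, beside 136 of all 339 (40.1%). Such a count grows with depth, and the 6 most abundant members had at least 435 counts in each library. The median log2 ratio was -0.59 over the 8 members and 0.079 over all 339, with quartiles of -0.22 and 0.38. The difference of these medians was -0.67 under all 5 scalings to the second decimal. This was fixed in advance, since a scaling adds nearly the same amount to every ratio.

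**Figure D2:**
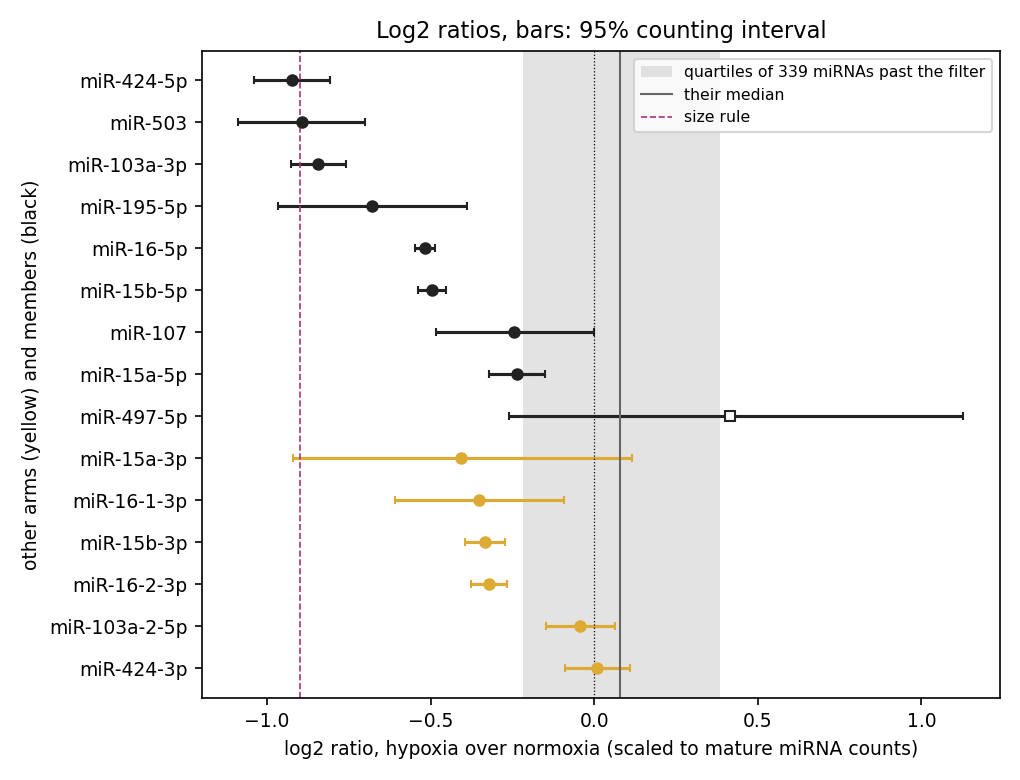
Log2 ratio of hypoxia over normoxia for the members (black) and the other arms of their hairpins (yellow), with bars for the 95% counting interval. The grey band spans the quartiles of the 339 miRNAs past the filter, -0.22 to 0.38, and the dashed line marks the size rule. The open square is miR-497-5p, which is under the filter. All 8 filled points of the members lie to the left of the band, those of miR-107 and miR-15a-5p just outside it at -0.24.

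Grouped by seed, the 6 members with AGCAGCA took 89.5% of the counts of the group in normoxia (89.2 to 89.9) and 91.3% in hypoxia (91.0 to 91.5). The pair with GCAGCAU took 8.92% (8.59 to 9.26) and 7.54% (7.27 to 7.81), and miR-503 took 1.54% (1.40 to 1.69) and 1.201% (1.09 to 1.32). These shares do not depend on the scaling between libraries, and none of the 3 pairs of intervals overlapped. The log2 ratio of summed counts was -0.51 for AGCAGCA, -0.78 for GCAGCAU and -0.89 for AGCAGCG. The AGCAGCA class was then set beside the other miRNAs that share a seed, a comparison chosen after the values were seen. Of 16 seed classes with at least 3 miRNAs past the filter, it had the lowest ratio of summed counts, -0.51 over 5 miRNAs. The next were the class of miR-378d at -0.32 and the miR-29 class at -0.28, and the highest was the class of miR-148b-3p at 0.73. The order of the classes is the same under every scaling, since a scaling moves all of them by the same amount.

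**Figure D3:**
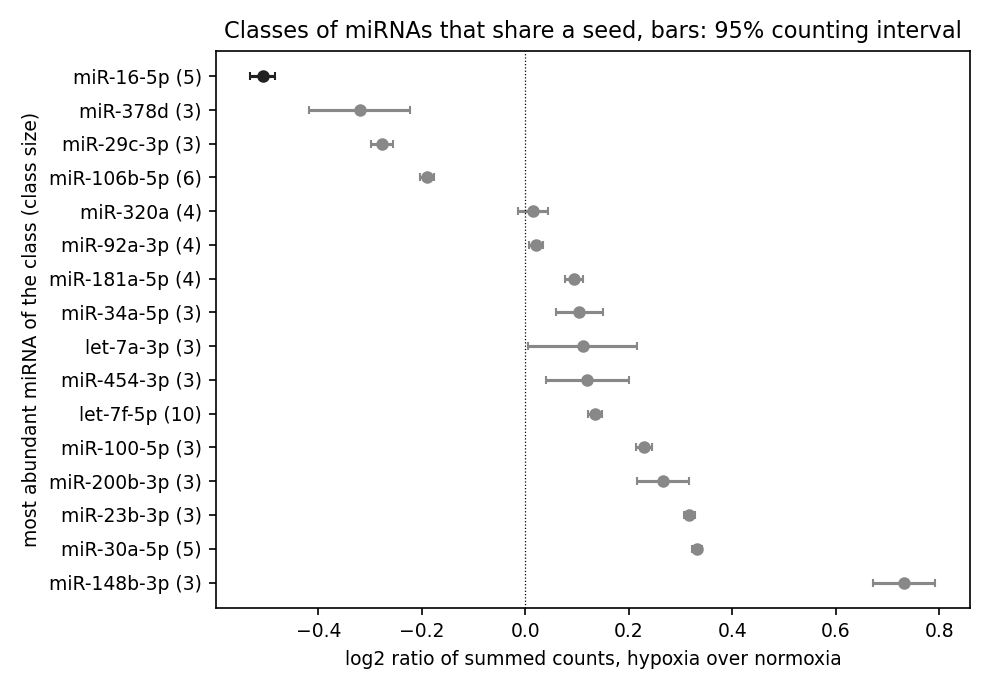
Log2 ratio of hypoxia over normoxia for the summed counts of the 16 seed classes with at least 3 miRNAs past the filter, with bars for the 95% counting interval. Each class is named by its most abundant miRNA, with its size in parentheses. The class of miR-16-5p (black) lies lowest at -0.51 and that of miR-148b-3p highest at 0.73.

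Members of a locus were compared by the ratio of their counts within each library, which needs no scaling. The ratio of miR-15b-5p over miR-16-5p was 0.493 in normoxia and 0.4999 in hypoxia, a log2 change of 0.02 ± 0.03 (SE from counting). The ratio of miR-15a-5p over miR-16-5p was 0.119 and 0.145, a log2 change of 0.28 ± 0.05. For miR-15b-5p over miR-15a-5p the values were 4.14 and 3.45, a log2 change of -0.26 ± 0.05. miR-15b-5p and miR-16-5p thus kept their ratio within counting error, and miR-15a-5p was lower by less than either. Since miR-16-5p comes from both loci, only miR-15a-5p and miR-15b-5p set chromosome 13 beside chromosome 3 among the guides.

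The 3p arms of these hairpins can be assigned to 1 locus each. miR-16-2-3p from chromosome 3 stood at 965 CPM in normoxia and 772 CPM in hypoxia, and miR-15b-3p, also from chromosome 3, at 805 and 638 CPM. From chromosome 13, miR-16-1-3p stood at 46.3 and 36.3 CPM and miR-15a-3p at 12.2 and 9.19 CPM. The 4 arms had log2 ratios of -0.32 (miR-16-2-3p), -0.33 (miR-15b-3p), -0.35 (miR-16-1-3p) and -0.41 (miR-15a-3p), where the last has an interval from -0.92 to 0.12. The ratio of miR-16-2-3p over miR-16-1-3p was 20.9 and 21.3, a log2 change of 0.03 ± 0.13, and that of miR-15b-3p over miR-15a-3p was 66.1 and 69.5, a change of 0.07 ± 0.26. In the 3p arms no difference between the 2 loci was detectable at this depth, where the guides miR-15b-5p over miR-15a-5p had changed by -0.26 (95% counting range -0.36 to -0.16). That value lies within the range of miR-15b-3p over miR-15a-3p (-0.43 to 0.57) and just outside that of the better counted miR-16-2-3p over miR-16-1-3p (-0.23 to 0.29), which overlaps the range of the guides.

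On chromosome X, miR-424-5p over miR-503 gave 2.79 and 2.74, a log2 change of -0.03 ± 0.11, although the 2 seeds differ. On chromosome 17, miR-195-5p over miR-497-5p gave 7.08 and 3.32, a log2 change of -1.09 ± 0.36 that rests on 26 and 66 counts of miR-497-5p. For the paralogues of the PANK introns, miR-103a-3p over miR-107 gave 9.84 and 6.50, a log2 change of -0.60 ± 0.13, with the limit that they differ by a single base.

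**Figure D4:**
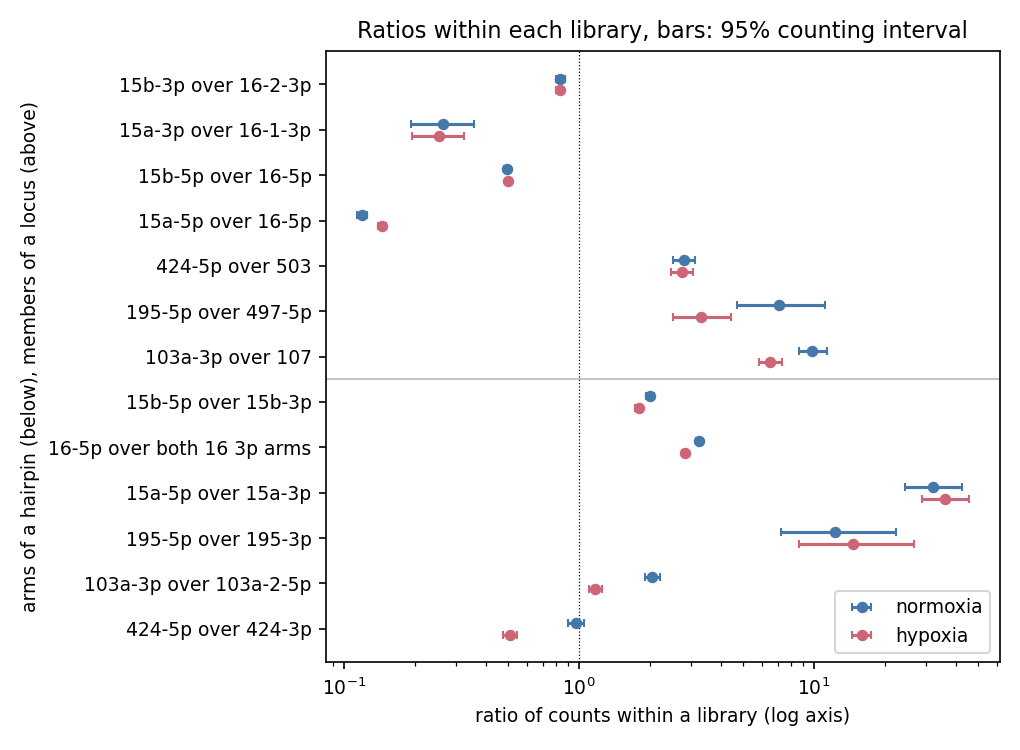
Ratios of counts within the normoxia library (blue) and the hypoxia library (red) on a log axis, with bars for the 95% counting interval. Pairs of members, or of 3p arms, from paired or paralogous loci are above the grey line. Members over the other arms of their hairpins are below it. The points coincide for miR-15b-5p over miR-16-5p (0.493 and 0.4999) and part for miR-424-5p over miR-424-3p (0.971 and 0.509).

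The other arm of each hairpin, the one opposite the member, was compared next. The member is called the guide in this text, and loading into Argonaute was not measured. Such arms are listed under 8 names, and miR-503-3p is not listed. Nor is miR-103b, which is read from the strand opposite to miR-103a. The sequences of 4 of them are shown with GCUGC in capitals, the reverse complement of the GCAGC in the seed of their partner.
miR-16-2-3p: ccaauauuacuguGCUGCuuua
miR-15b-3p: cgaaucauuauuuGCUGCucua
miR-424-3p: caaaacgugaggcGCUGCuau
miR-103a-2-5p: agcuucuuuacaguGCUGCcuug
GCUGC was found in 7 of the 8 arms, all but miR-497-3p, and in 29 of the 859 mature miRNAs (3.38%), on the strand of the miRNA only.

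Together the 8 arms had 10645 counts in normoxia, 0.236% of the mature counts (0.231 to 0.240), and 17000 in hypoxia, or 0.198% (0.195 to 0.201). Their log2 ratio was -0.25 (-0.29 to -0.22), nearer to 0 than the -0.53 of the guides. Of the 6 past the filter, the interval of 3 lay wholly below 1, beside 26.5% of all 339 miRNAs. When the top 10 miRNAs were left out of the totals, it did so for all 6, beside 136 of the 339 (40.1%). In 4 of 7 comparisons the guide was lower relative to its own partner. The 7 include arms under the filter, and the count is not read as a trait of the members. Over all 73 hairpins with both arms past the filter, the 5p arm had the lower log2 ratio in 39. That count goes by arm and not by guide, and the guide of miR-103a is its 3p arm, so the 2 counts are not the same quantity. The ratio of miR-15b-5p over miR-15b-3p went from 2.01 to 1.79, a log2 change of -0.16 ± 0.04 (SE from counting). That of miR-16-5p over both of its 3p arms went from 3.24 to 2.83, a change of -0.19 ± 0.03. Larger changes were seen for miR-103a-3p over miR-103a-2-5p, from 2.05 to 1.17 (-0.80 ± 0.07), and for miR-424-5p over miR-424-3p, from 0.971 to 0.509 (-0.93 ± 0.08). MIR103A1 gives the same miR-103a-3p, and its reads may be among these counts, so this ratio may not be that of 1 hairpin.

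For 3 hairpins the arm ratio did not go down. miR-15a-5p over miR-15a-3p gave 32.0 and 36.1, a log2 change of 0.17 ± 0.26, and miR-195-5p over miR-195-3p gave 12.3 and 14.6, a change of 0.25 ± 0.55 on 15 counts of the 3p arm in each library. Both changes lie within their counting error. miR-497-3p had 6 counts in normoxia and 0 in hypoxia, where the exact interval reaches up to 0.429 CPM. miR-497-5p over miR-497-3p was 4.33 in normoxia (interval 1.74 to 12.9), and in hypoxia the lower limit of its exact interval was 17.4.

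miR-424-5p and miR-424-3p parted most among the members with both arms past the filter. The arms were about equal in normoxia, with 1215 and 1251 counts, whereas in hypoxia miR-424-3p had 2399 counts to 1220. miR-424-3p stood at 277 CPM in normoxia and 279 CPM in hypoxia, a log2 ratio of 0.01 that turned to between -0.06 and -0.19 under the 4 other scalings. Over all 73 hairpins, a set that was looked at after the values of miR-424 were seen, the log2 ratios of the arms differed by at least 0.9 in 11 (15.1%), miR-424 included. The median absolute difference was 0.423. The difference of 5p minus 3p ranked 6 from the lowest for miR-424 (-0.93), while miR-15b (-0.16) and miR-15a (0.16) were under that median.

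**Figure D5:**
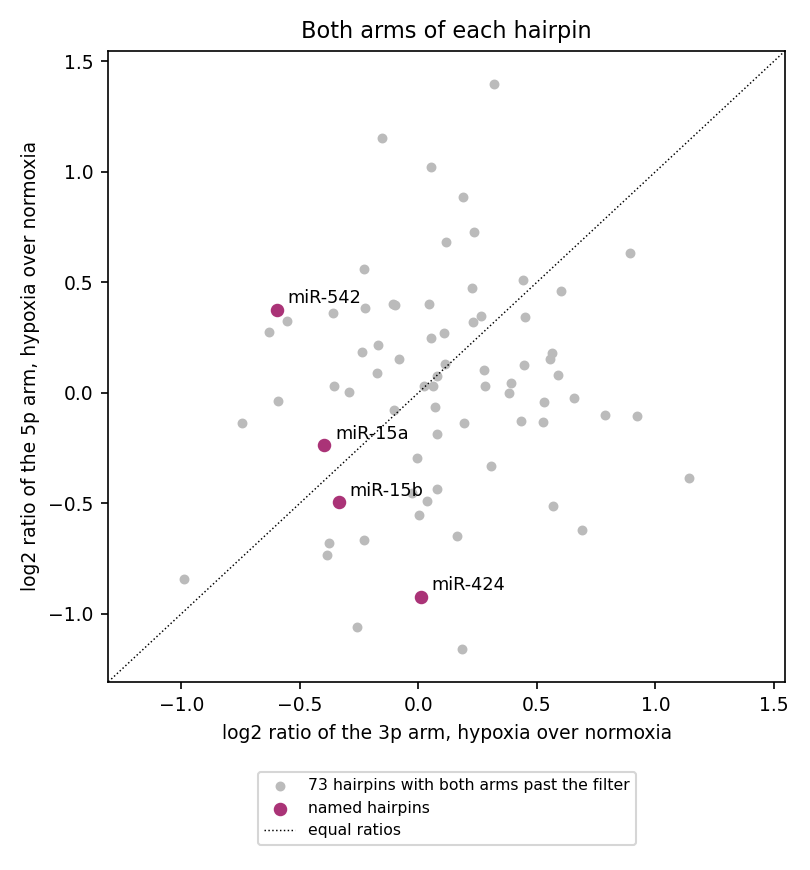
Log2 ratio of hypoxia over normoxia of the 5p arm against that of the 3p arm for 73 hairpins with both arms past the filter (grey), with 4 named hairpins in purple and a dotted line of equal ratios. miR-424 lies 0.93 below the line and miR-15a and miR-15b lie 0.16 from it, while miR-542 lies 0.97 above it.

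MIR424 and MIR503 are the first hairpins of a longer cluster on chromosome X, whose MIR542 lies 4890 bases beyond MIR503 on the same strand. Among the other miRNAs of the cluster, the intervals of miR-450a-5p and miR-542-5p did not overlap those of miR-424-5p and miR-503, whereas that of miR-542-3p overlapped both. miR-450a-5p stood at 449 CPM in normoxia and 517 CPM in hypoxia (log2 ratio 0.20, interval 0.13 to 0.28) and miR-542-5p at 87.7 and 114 CPM (0.38, 0.21 to 0.55). miR-542-3p stood at 50.3 and 33.1 CPM (-0.60, -0.86 to -0.34). In this locus the intervals of miR-424-5p, miR-503 and miR-542-3p lay wholly below 0 and those of miR-450a-5p and miR-542-5p wholly above it, but that of miR-450a-5p held 0 when the top 10 miRNAs were left out of the totals. The ratio of miR-542-5p over miR-542-3p went from 1.74 to 3.44, a log2 change of 0.98 ± 0.15, so that its 3p arm and the 5p arm of miR-424 were the ones that were lower. The rest of the cluster was rare, with 33 and 57 counts for miR-450b-5p (-0.14, -0.78 to 0.52) and 2 and 3 counts for miR-450a-3p.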

How the data were processed

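Small RNA libraries were made from total RNA of A549 cells by ligation and PCR without molecular identifiers and sequenced on a SOLiD instrument, with 1 library per condition. The deposited values are raw counts without normalization, and all 5475 features listed had at least 3 counts over both libraries. For SOLiD data the study's methods name LifeScope v2.5.1 and miRBase v18, without naming this experiment, and the submitters' processing notes give hg19 as the build. Each mature miRNA has 1 entry, the mature sequence with 1 flanking base on each side. How reads shared by 2 hairpins were counted, and how many reads began at another 5′ base, was not stated in the sources read.

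Counts were scaled to the total counts on mature miRNAs (4514818 and 8600160). The expression filter, a mean log2 CPM above 3, and the size rule of 0.9 on the log2 scale follow the thresholds that the study used for down-regulated genes in RNA sequencing. The use of the size rule in both directions and a prior count of 2 were set here. Shares have exact Clopper-Pearson intervals and ratios have exact conditional binomial intervals, both at 95%. The standard errors of changes in a ratio come from counting alone. The calculation was tested on simulated data. Alternatives were TMM factors of edgeR 4.0.16 and size factors of DESeq2 1.42.0 in R 4.3.3, other totals, thinning of the deeper library, a prior count of 0.5, and other filters, thresholds and denominators. Python 3.11.15 with scipy 1.17.1 was used for the rest.

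Sequences and hairpin positions are from RefSeq (GRCh38.p14) and host genes from GENCODE 29. The text names all members, the other arms of their hairpins, the other miRNAs of the chromosome X cluster, the other miRNAs with GCAGC within their first 8 bases, and miR-210. The members and lists were chosen with earlier results of these data known, and the marker miRNAs, the comparison of seed classes, that of all hairpins and the counting intervals under other scalings were added after the values were seen.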

Additional observations from a re-analysis of the deposited data

Results flagged for a closer look

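Besides the mature entries, the table holds counts on the hairpins themselves, on which the report did not draw. Of the 11 member hairpins 8 are listed, matched by their sequence, and 15 of their 16 counts exceeded 3, the floor used here to list them, which does not show which of them stem from a precursor. MIR103A1 had 88 counts in normoxia and 137 in hypoxia, MIR503 had 47 and 90, and MIR107 had 26 and 55. MIR15B had 21 and 10 counts, MIR16-2 had 18 and 35, MIR16-1 had 11 and 47, and MIR15A had 9 and 7. MIR103A2 had 8 counts in hypoxia and 1 in normoxia. These entries summed to 221 counts in normoxia and 389 in hypoxia, 0.783% and 1.05% of the counts on the members, with a log2 ratio of -0.11 (counting interval -0.36 to 0.13) when scaled to mature totals. The entry with the most counts, MIR103A1, has no mature entry inside it, since miR-103a-3p is listed at MIR103A2 alone. Whether any of these reads were also counted on a mature entry was not tested.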

How the results depend on the processing

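Every change of scaling left the 8 members past the filter lower in hypoxia and miR-497-5p higher. All 4 other scalings moved every ratio down, so among the members only miR-497-5p could have changed sign. The log2 ratio of the group was -0.65 with TMM factors, -0.60 with DESeq2 size factors, -0.73 when the top 10 miRNAs of each library were left out of the totals, -0.63 with totals of the whole table and -0.45 with the other arms added. Its share was 0.438% in normoxia and 0.283% in hypoxia of all counts of the table, 2.25% and 1.36% of mature counts without miR-21-5p, and 0.861% and 0.629% with the other arms added. The number of members lower by the size rule was 3 under each of the 4 other scalings and 0 at a threshold of 1. When the deeper library was thinned it was 1, miR-503 in place of miR-424-5p, beside 10 of all 339 miRNAs. Over all mature miRNAs, those lower numbered 15 and those higher 8 with TMM, DESeq2 or whole-table scaling. Those lower numbered 18 of 339 without the top miRNAs in the totals and 64 of 859 without the filter. They numbered 7 of 263 with a mean CPM of at least 20 and 6 of 339 at a threshold of 1. Those higher numbered 5 of 339 without the top miRNAs and 113 of 859 without the filter. Without miR-16-5p the other members with AGCAGCA took 78.0% of the group in normoxia and 81.4% in hypoxia, miR-503 took 3.24% and 2.56%, and miR-103a-3p with miR-107 took 18.7% and 16.04%, by construction. The log2 ratio of miR-424-3p, close to 0, changed sign to -0.10 with TMM factors, -0.061 with DESeq2 size factors, -0.19 without the top miRNAs and -0.085 with totals of the whole table. A change of scaling adds the same amount to every ratio, and TMM moved the median of all 339 miRNAs from 0.079 to -0.035. Ratios within a library do not depend on it. No paired analysis was possible because there is only 1 library for each oxygen level, so leaving out a library was not possible either. Depth limits miR-497-5p, miR-195-3p, miR-497-3p and miR-15a-3p, each with under 100 counts in every library.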
